A study of Gallus gallus with 100 samples.

Results

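The insulin-like growth factor (IGF) system was followed as 9 genes, picked by family name rather than by a cutoff on their values, though with earlier results of these data known: the ligands IGF1 and IGF2, the receptors IGF1R and IGF2R, and the binding proteins IGFBP2, IGFBP3, IGFBP4, IGFBP5 and IGFBP7. They are 9 of 18685 genes listed in at least 1 of 6 tables, 1 table for each day of sampling, and 8 of them are among the 9881 genes listed in every table. IGF2R is missing from the day 40 table only. Each library was made from the gland of 1 bird, a male of the Ross 708 strain of broiler (meat) chickens. Control birds lived at 25 °C. Heat-stressed birds lived in a separate house that was warmed to 35 to 37 °C for 8 hours a day from day 21 onward, so house and heat cannot be told apart. Controls numbered 15 at day 21, before any heat, 10 at day 22, 6 at day 26, 6 at day 32, 5 at day 40 and 10 at day 42. Heat-stressed birds numbered 13 at day 22, after the 8 hours of the first day, 5 at day 26, 2 hours into the daily heat, 6 at day 32, 4 hours into it, 5 at day 40 and 17 at day 42, the end of the trial. The titles of the day 40 birds, control and heat, add the word Week, which is not explained in the sources used here, and day 40 is not in the described schedule of necropsies. How long and in what pattern the day 40 birds were heated is therefore uncertain.

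IGF1 and IGF2 are small secreted peptides related to insulin that promote growth and survival of cells through IGF1R, a receptor tyrosine kinase whose signal runs through the IRS, PI3 kinase and MAP kinase routes. In mammals IGF2R, the cation-independent mannose 6-phosphate receptor, also takes up and clears IGF2, whereas the chicken receptor binds IGF2 poorly and is known for carrying lysosomal enzymes. The IGFBPs bind the peptides outside the cell, carry them and limit or prolong their access to the receptor, and proteases such as PAPPA and HTRA1 release the peptides by cutting the binding proteins. IGFBP7 binds IGFs weakly and is known from the walls of blood vessels. Growth hormone from the anterior pituitary stimulates IGF1 production, chiefly in the liver, and IGF1 in turn restrains growth hormone release from the gland.

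The values are FPKM, sequenced fragments of a gene divided by its length and by the fragments mapped in the library, which allows levels to be set side by side between genes. The tables of the 6 days share no scale other than this division, and the number of mapped reads was not used here. The step between the lowest values gave a rough depth of each library relative to the deepest of its table, which was 0.324 or more at days 21 to 40 and went down to 0.0297 at day 42, in library 984. Between 6709 and 10514 genes reached 1 FPKM in a library. Libraries 1012 (a day 42 control, 6709 genes) and 984 (a heat-stressed bird of day 42, 6931 genes) stood below the other 96 libraries, which had 7677 genes or more. The labelled tissue was checked against its markers. In the 27 libraries of day 42, 6 pituitary hormone genes summed to 91286 to 235596 FPKM and 5 transcription factors of the anterior lobe to 593 to 1442 FPKM. In the 71 libraries of days 21 to 40 the hormones summed to 1.98 to 1668 FPKM and the transcription factors to 0.171 to 74.6 FPKM. There, MBP, a main myelin protein, was 20018 to 57909 FPKM in the 23 libraries whose tables list it, against 9.89 to 75.7 FPKM at day 42. The libraries of days 21 to 40, although labelled as pituitary, were thus far lower in the defining hormones of the gland, and levels of the IGF system at day 42 and at the earlier days belong to tissue of different makeup. In such tissue, fewer cells of a type and less RNA per cell cannot be told apart. The numbers that end the sample titles, used here to name the libraries, were divided into 4 ranges, starting under 1100, at 1200, at 1400 and at 1500. The titles do not say what the numbers stand for. The ranges served as groups in some fits, and whether they mark batches is not known. They will be called the ranges under 1100, from 1200, from 1400 and from 1500.

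The genes are spread over 8 chromosomes of the galGal4 genome, as the tables give them, and each value stands for a whole gene with its exons and untranslated regions together. The locus of IGF1 (Entrez 418090) is chr1:55432529-55480957, that of IGF1R (395889) is chr10:16180675-16320955, and both were given the same span in all 6 tables. The other spans varied between tables. In the day 42 table, IGF2 (395097) is at chr5:13154326-13164335, IGF2R (395817) at chr3:44771758-44826153, IGFBP3 (420790) at chr2:55014098-55031203, IGFBP4 (374271) at chr27:4417809-4447344 and IGFBP7 (422620) at chr4:48567601-48597935. IGFBP5 (424220, chr7:22732576-22750404) and IGFBP2 (396315, chr7:22756796-22808688 in the day 21 table) lie side by side with 6391 bases between them in that table. The span of IGF2 went from 8344 to 16236 bases between tables, and that of IGFBP7 was 30335 bases at day 42 and 16670 to 16785 elsewhere. A changed gene model changes the length by which FPKM divides, and its part in differences between days was not tested. IGFBP7 overlapped POLR2B, a subunit of RNA polymerase II, in every table and IGFBP4 overlapped TOP2A, a topoisomerase of dividing cells, in the tables of days 21, 26 and 40. The libraries were stranded, but whether strand was used in counting is not given in the sources used here, so reads of these neighbours may be shared.

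One order of levels was common to all groups at its ends. IGFBP7 was the highest of the genes and IGF1 the lowest in each of the 11 groups. IGFBP7 was above the next gene in all 98 libraries and averaged 264 ± 119 FPKM (SD, n = 71) over days 21 to 40 and 248 ± 121 FPKM (n = 27) at day 42. At day 21 its median of 315 FPKM lay above 99.1% of the 14458 genes listed. At days 21 to 40 IGFBP2 and IGFBP4 came next, in either order, with overlapping mean ± SD ranges. At day 42 IGFBP5 was second in controls, with a median of 17.8 FPKM against 15.5 for IGFBP4 and 13.1 for IGFBP2. In heat-stressed birds of that day it lay between IGFBP4 and IGFBP2, and neighbours among these 3 genes overlapped. IGFBP2 was above IGFBP4 in 13 of 15 libraries of day 21, and IGFBP4 above IGFBP2 in 5 of 6 control libraries of day 26. IGFBP5 and IGF2R followed at days 21 to 32 and also overlapped. IGF1R, IGFBP3 and IGF2 then formed a low group, with group medians of 0.847 to 5.69 FPKM at days 21 to 40, in which neighbours overlapped in all groups.

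**Figure D1:**
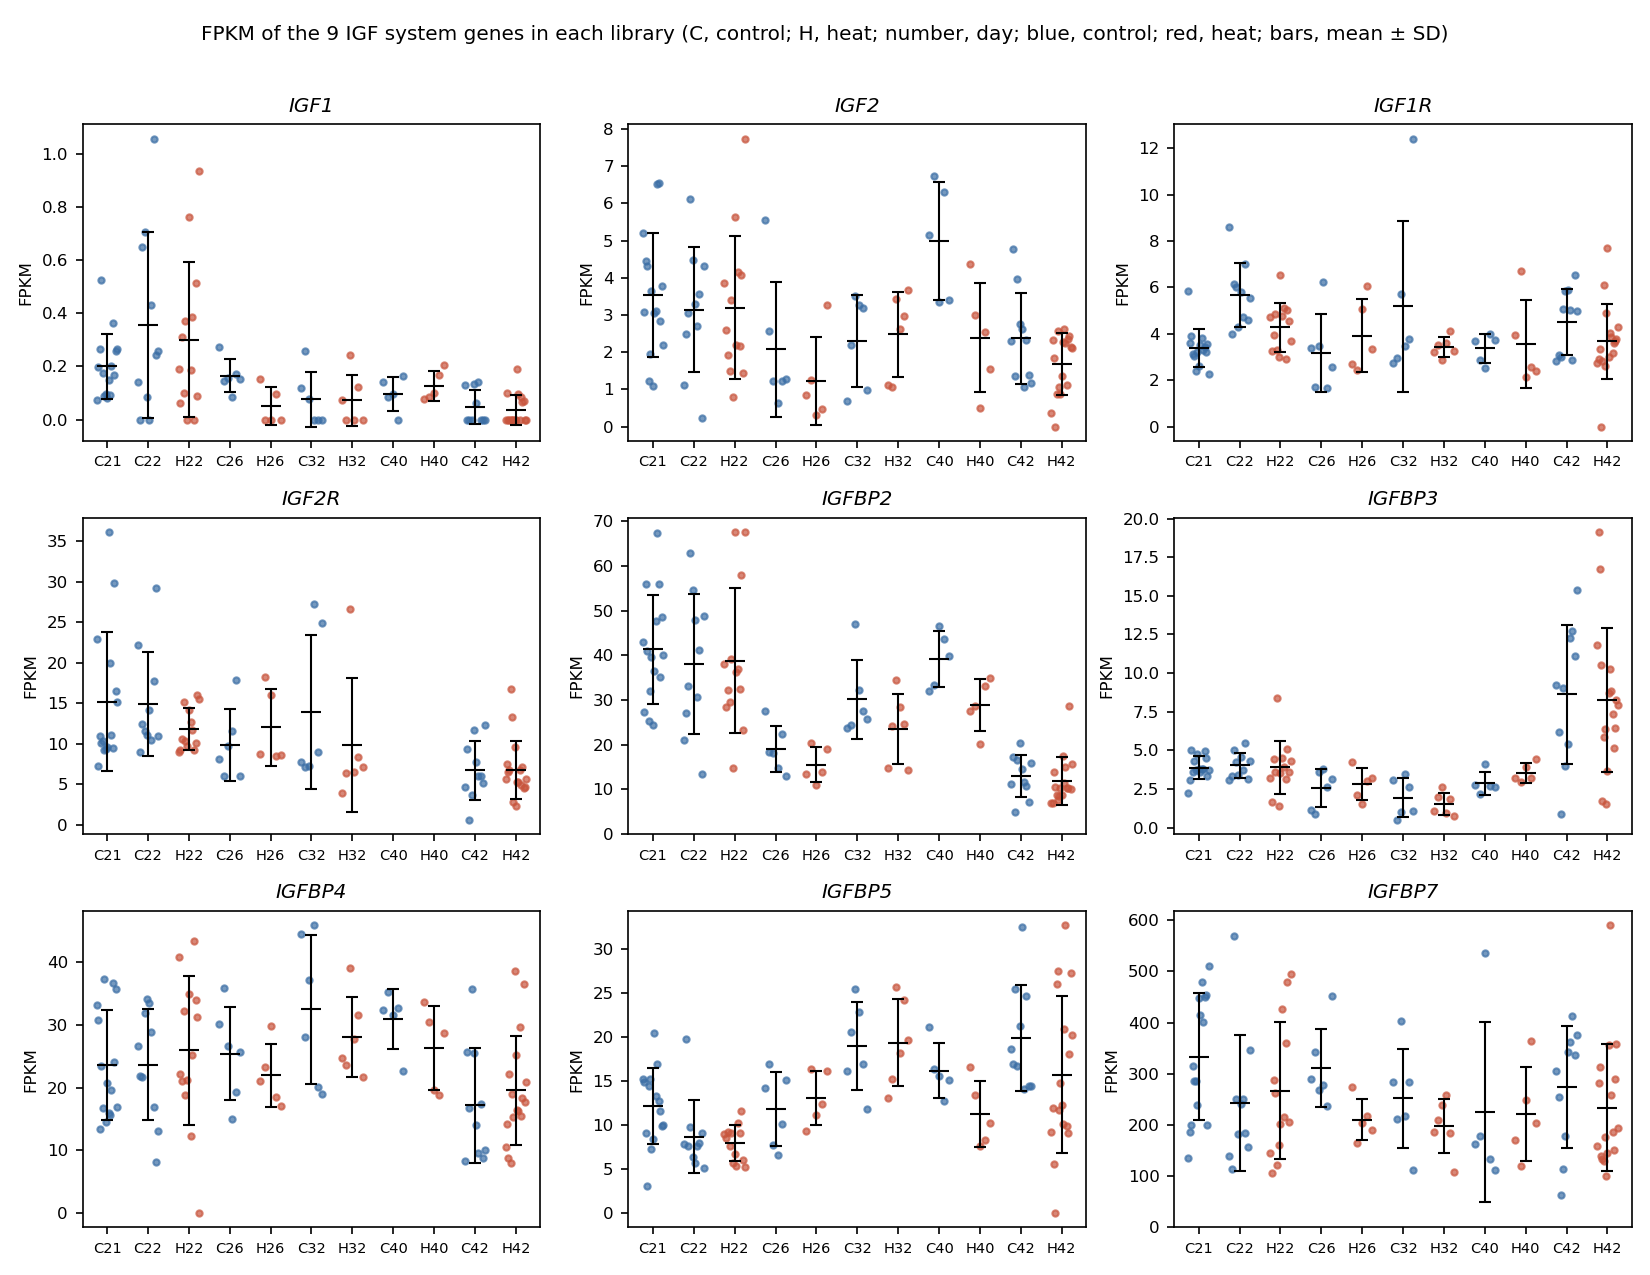
FPKM (vertical axes, linear) of the 9 genes in every library, with 1 point per bird, groups along the horizontal axis (C, control, blue; H, heat, red; the number is the day) and bars for mean ± SD. IGFBP2 sits lower at day 42 than at days 21, 22 and 40, IGFBP3 sits higher at day 42 than earlier, and control and heat birds of the same day overlap for every gene.

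Of the ligands, IGF1 was barely detected. It went from 0.0725 to 0.526 FPKM, with a median of 0.175, in the 15 libraries of day 21. Its highest value anywhere was 1.06 FPKM, in a day 22 control. It was listed at 0 in 14 of 71 libraries of days 21 to 40 and in 17 of 27 at day 42, and a 0 in these tables can be a failed estimate. IGF1 therefore passed the filter of a mean of 1 FPKM in none of the comparisons. Tested without the filter, with limma on log2(FPKM + 1) as described below, it was called in none. Its smallest limma adjusted p was 0.0158, for a difference of -0.34 in controls of day 42 against day 22, under the 2-fold minimum. The means of these groups, 0.0465 and 0.357 FPKM, differ 7.68-fold. At such levels groups can hardly differ 2-fold on the log2(FPKM + 1) scale, so a call of IGF1 between days was hardly possible. With values this near 0 nothing is drawn from it.

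IGF2 was above IGF1 in 96 of 98 libraries. Library 1552, a day 22 control, had slightly more IGF1, and library 984 was listed at 0 for both. IGF2 was low throughout. Control birds had 3.53 ± 1.67 FPKM (SD, n = 15) at day 21, 3.14 ± 1.68 (n = 10) at day 22, 2.08 ± 1.82 (n = 6) at day 26, 2.30 ± 1.23 (n = 6) at day 32, 4.99 ± 1.59 (n = 5) at day 40 and 2.37 ± 1.23 (n = 10) at day 42. Birds of a group differed widely, for example from 0.223 to 6.12 FPKM among the day 22 controls.

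Of the receptors, IGF2R was above IGF1R in 84 of the 88 libraries that list both. IGF1R had group means between 3.17 and 5.68 FPKM, and its mean was 4.06 ± 1.70 FPKM (n = 71) at days 21 to 40 and 3.99 ± 1.58 (n = 27) at day 42. IGF2R had 13.0 ± 6.73 FPKM (n = 61) at days 21 to 32 and 6.78 ± 3.54 (n = 27) at day 42. Birds of a group differed widely in it, for example from 7.30 to 36.2 FPKM at day 21.

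The binding proteins differed in how they varied with age. IGFBP2 averaged 33.2 ± 14.1 FPKM (n = 71) at days 21 to 40 and 12.3 ± 5.05 (n = 27) at day 42, and IGFBP4 averaged 25.9 FPKM (n = 71, from 0 to 45.9) and 18.7 FPKM (n = 27, from 8.03 to 38.7). IGFBP3 averaged 3.26 ± 1.34 and 8.39 ± 4.49, and IGFBP5 12.3 ± 5.28 and 17.3 ± 8.08. IGFBP5 was already at 18.9 ± 4.96 FPKM in controls of day 32 (n = 6). Library 984 of day 42 was listed at 0 for IGF2, IGF1R and IGFBP5, and library 1559 of the heat-stressed birds of day 22 at 0 for IGFBP4, although every other library of those groups had at least some FPKM of these genes.

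Control glands were compared between days with limma on log2(FPKM + 1), with Benjamini-Hochberg adjustment over all genes tested. A gene was called when its adjusted p was under 0.05 and its difference at least 2-fold on this scale. The log2(FPKM + 1) scale understates the change of low genes. The largest difference on this scale was in IGFBP2, which fell between day 40 and day 42. The 5 control libraries of day 40 had 32.1, 33.4, 39.8, 43.7 and 46.5 FPKM. The 10 of day 42 went from 5.06 over a median of 13.1 to 20.3 FPKM. Every library of day 42 was below every library of day 40, and the means of 39.1 ± 6.30 and 13.0 ± 4.74 FPKM differ 3.00-fold. How many of all genes were separated in this way was not counted, here or in the comparisons below. In this comparison 28.8% of all genes tested were called. The log2 difference was -1.59 ± 0.28 (SE, limma adjusted p = 0.000155).

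IGFBP3 moved the other way and rose from day 40 to day 42. Its day 40 controls had 2.17, 2.64, 2.68, 2.74 and 4.15 FPKM, and those of day 42 went from 0.886 over a median of 9.13 to 15.4 FPKM. Of the 10 libraries of day 42, 8 were above every library of day 40 and 1, library 1012 with the fewest genes at 1 FPKM, was below all of them. The log2 difference was 1.12 ± 0.40 (SE, limma adjusted p = 0.0332). It was no longer called when any 1 of 8 libraries was left out (1279, 1516, 1578 or 1579 of day 40, or 1416, 1417, 1419 or 1420 of day 42), with log2 differences of 1.01 to 1.11 and adjusted p of 0.0515 to 0.0779 in limma, and it was 1.36 with an adjusted p of 0.000409 without library 1012.

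IGF2 and IGFBP4 were also lower at day 42 than at day 40 but by less than the 2-fold minimum on the log2(FPKM + 1) scale. The means of IGF2, 4.99 and 2.37 FPKM, differ 2.11-fold. IGF2 fell by 0.87 on the log2 scale (SE 0.27, limma adjusted p = 0.0148), and 8 of 10 libraries of day 42 were below all 5 of day 40. IGFBP4 fell by 0.95 (SE 0.32, limma adjusted p = 0.0258), with means of 30.9 ± 4.81 and 17.2 ± 9.15 FPKM, and it passed the 2-fold minimum when any 1 of libraries 1579, 1414, 1011 or 1013 was left out (-1.08 to -1.03). IGF1R, IGFBP5 and IGFBP7 had log2 differences of 0.30, 0.25 and 0.35, with limma adjusted p of 0.321, 0.437 and 0.583. In this comparison 28.8% of 8744 genes were called, and 2 of 7 IGF system genes, a share like that of all genes. Without the 2-fold minimum, 37% of all genes and 4 of 7 IGF system genes passed.

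The same direction held for IGFBP2 over the longer interval from day 22 to day 42. Its day 22 controls went from 13.4 over a median of 37.1 to 62.9 FPKM. Of these 10 libraries, 9 were above all 10 of day 42. The log2 difference was -1.44 ± 0.27 (SE, limma adjusted p = 7.23e-05). IGFBP2 was no longer called here with the number range as covariate. The comparisons with day 22 and with day 40 share the 10 controls of day 42, so they are not independent. IGFBP5, which in mammals binds to extracellular matrix, rose by 1.15 ± 0.21 (SE, limma adjusted p = 5e-05). Its levels at day 22 went from 5.07 over a median of 7.75 to 19.7 FPKM and at day 42 from 14.1 over 17.8 to 32.4. The groups overlapped through library 1437 alone, since the other 9 libraries of day 22 were below all of day 42.

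IGF2R fell by 1.14 ± 0.30 on the log2 scale from day 22 to day 42 (SE, limma adjusted p = 0.00273). At day 22 it went from 8.99 over a median of 12.0 to 29.3 FPKM, and at day 42 from 0.629 to 12.3 with a mean of 6.74 ± 3.63, so that 7 of 10 libraries of day 42 were below all of day 22. The value of 0.629 belongs to library 1012. Without that library the difference was -0.91, which is under the 2-fold minimum, with a limma adjusted p of 0.00143. IGFBP3 rose by 0.75 ± 0.29 (SE, limma adjusted p = 0.0321), under the 2-fold minimum on the log2(FPKM + 1) scale. Its means of 4.02 and 8.62 FPKM differ 2.14-fold. IGF2, IGF1R, IGFBP4 and IGFBP7 had log2 differences of -0.24, -0.30, -0.48 and 0.14 and limma adjusted p of 0.48, 0.153, 0.158 and 0.751. Here 33% of 8301 genes were called, and 3 of 8 IGF system genes, which is close to the share of all genes. Without the 2-fold minimum, 53.1% of all genes and 4 of 8 IGF system genes passed.

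Makeup and library number moved with the comparison of days 22 and 42. Over the marker genes that both tables list, the median sum in controls went from 21.7 to 137990 FPKM for the 6 hormones, from 0.559 to 985 for the 5 transcription factors, from 19958 to 2.45 for 3 myelin genes, from 58.3 to 10.4 for 2 genes of astroglia, from 31.7 to 233 for 5 genes of neurons, from 45.1 to 26.8 for 4 genes of endothelium and from 937 to 156 for 8 genes of fibroblasts and mural cells. The same sums between days 40 and 42 went from 23.0 to 137470 for 5 hormones, from 0.643 to 985 for the transcription factors, from 16416 to 0.198 for 2 myelin genes, from 135 to 10.6 for 3 genes of astroglia, from 78.5 to 233 for 5 genes of neurons and from 589 to 156 for the 8 fibroblast and mural genes. Endothelial genes went the other way here, from 38.7 to 60.8 for 5 genes, which include EGFL7, a gene not in the sum for day 22. Of 3 housekeeping genes looked at, only EEF1A1 is listed at both day 40 and day 42. Its control median was 44.1 FPKM (39.7 to 824) at day 40 and 0 (0 to 1385) at day 42. Its levels thus differed between and within these days, and a 0 can be a failed estimate. GAPDH and EEF1A1 together had medians of 1051 FPKM at day 22 and 1350 at day 42. The part of makeup, or of such values, in the differences of the IGF system was not tested. The top 10 genes of a library took up 13.9% of its FPKM total in the median day 22 control and 41.2% in the median day 42 control. Only 2 day 22 controls, libraries 1432 and 1437, share a number range with day 42 controls, the range from 1400. Within this range, 2 libraries against 6, the log2 difference of IGFBP2 was -0.86, of IGF2R -0.80 and of IGFBP5 0.58, with limma adjusted p of 0.0793, 0.157 and 0.299. IGFBP7 was 1.36 and IGFBP3 1.28 higher at day 42 in that range, with limma adjusted p of 0.00724 and 0.0487. Controls of days 40 and 42, and those of days 26 and 32, share no number range, so number and day cannot be told apart there.

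**Figure D2:**
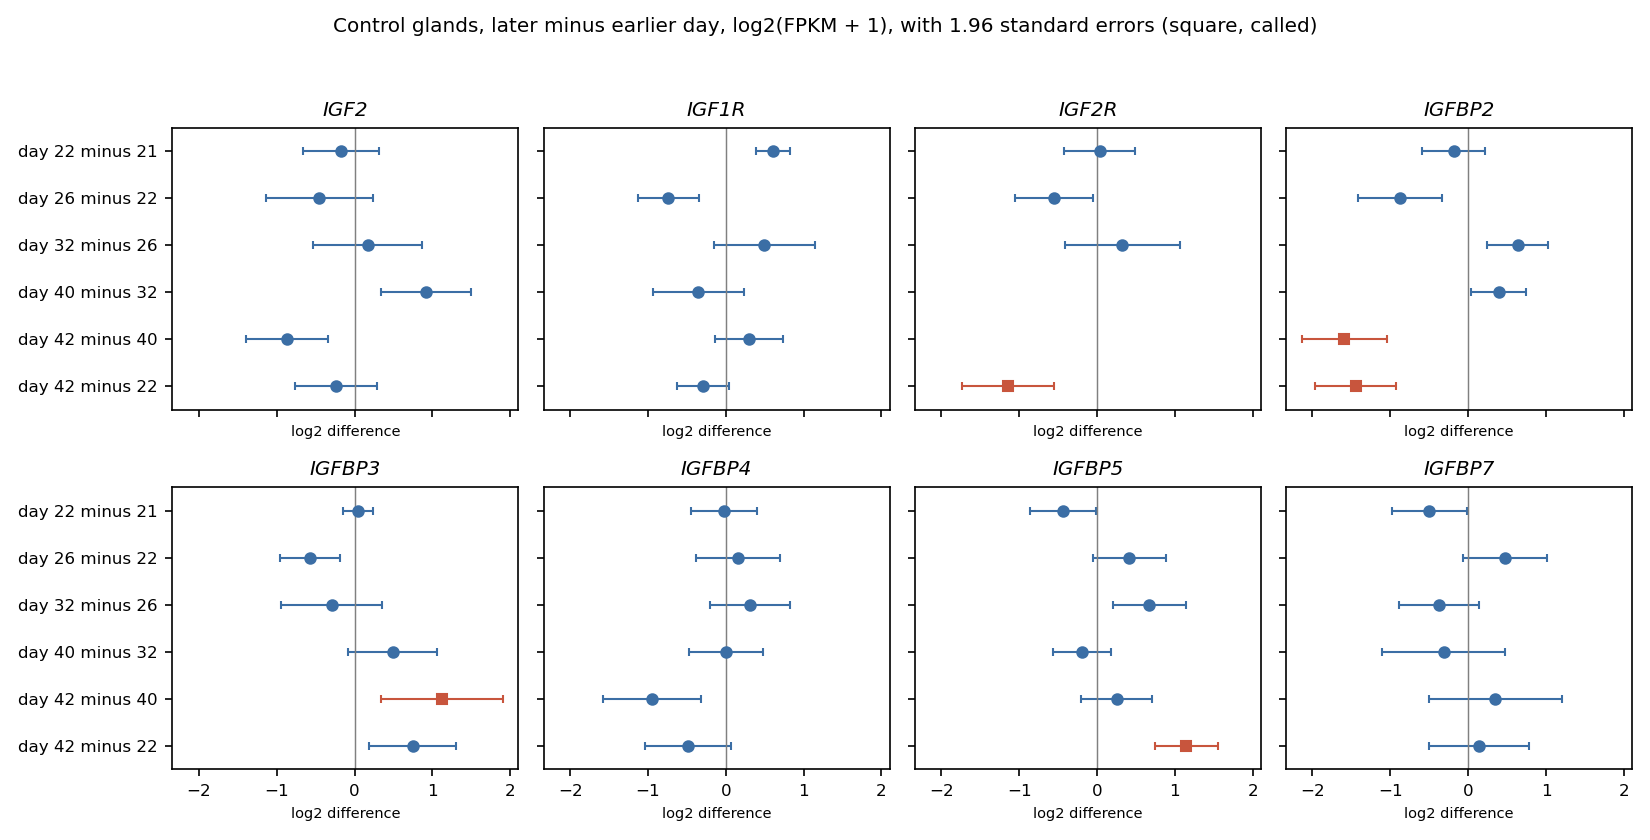
Differences in log2(FPKM + 1) between control glands of 2 days (horizontal axes, later minus earlier day) for the 8 genes above the filter, 1 comparison per line, with red squares for called genes and blue circles for the others. Bars are approximate 95% intervals, taken from the SE by the normal distribution, which are somewhat narrower than those of the limma test. IGFBP2 is called at -1.59 and -1.44 in both comparisons that end at day 42, IGF2R at -1.14, IGFBP3 at 1.12 and IGFBP5 at 1.15 in 1 comparison each, and IGF2R has no value where day 40 is involved.

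None of the IGF system genes tested was called in the other comparisons of days. From day 21 to day 22 limma called 0.0643% of 7781 genes (827 had an unadjusted p under 0.05), and of the 8 IGF system genes tested only IGF1R had an adjusted p under 0.05. Of all genes, 0.257% had such an adjusted p at any fold. IGF1R went from 2.26 over a median of 3.29 to 5.85 FPKM at day 21 and from 4.00 over 5.69 to 8.59 at day 22. All libraries of day 21 but 1 were below all of day 22. The difference was 0.60 ± 0.11 on the log2 scale (SE, limma adjusted p = 0.0192), which is under 2-fold, and it was 0.64 within the range from 1500 (limma adjusted p = 0.00178).

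From day 22 to day 26 IGF1R was lower by -0.74 ± 0.20, IGFBP2 by -0.88 ± 0.28 and IGFBP3 by -0.57 ± 0.20 on the log2 scale (SE, limma adjusted p of 0.00594, 0.0152 and 0.0239), none of them 2-fold. In this comparison the median of all genes was itself -0.35, and 11.3% of 8026 genes were called. An adjusted p under 0.05 at any fold was reached by 50.2% of all genes, so 3 of 8 IGF system genes was not above the share of all genes. Of the other 5 genes, IGF2 (-0.45) and IGF2R (-0.55) were below that median and IGFBP4 (0.16), IGFBP5 (0.42) and IGFBP7 (0.47) above it, with limma adjusted p of 0.0802 to 0.661. IGFBP2 had 13.1 over a median of 18.3 to 27.5 FPKM at day 26, and 7 of 10 libraries of day 22 were above all of these. It passed the 2-fold minimum without library 1552 (-1.02, limma adjusted p = 0.00138) and within the range from 1500 (-1.18, adjusted p = 0.0278). In that range IGF1R was -0.66 and IGFBP3 -0.31, with limma adjusted p of 0.0545 and 0.136, so neither kept an adjusted p under 0.05. Over the 8 fibroblast and mural genes the median sum went from 937 to 539 FPKM between these days. Other sums fell too, from 58.3 to 25.5 for 2 genes of astroglia, from 19958 to 11922 for 3 myelin genes and from 31.7 to 18.5 for 5 genes of neurons. Sums changed less for endothelium (45.1 to 40.9) and hormones (21.7 to 21.6). Those of housekeeping genes went from 1051 to 1111 and of choroid plexus genes from 2.73 to 5.82. The part of these markers was not tested.

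From day 26 to day 32 limma called 0.835% of 8862 genes and none of the 8 IGF system genes, of which IGFBP2 (0.63, unadjusted p = 0.00795) and IGFBP5 (0.67, unadjusted p = 0.0158) had an unadjusted p under 0.05 in this model across all genes, as did 1958 of the 8862 genes, a like share. From day 32 to day 40 it called 2.93% of 8571 genes and none of 7. The largest difference of those 7 was in IGF2, which went from 0.674 over a median of 2.69 to 3.51 FPKM at day 32 and had 3.35, 3.42, 5.14, 6.31 and 6.75 at day 40. The log2 difference was 0.92 ± 0.30 (SE, limma adjusted p = 0.0624), and it was 1.03 with an adjusted p of 0.0496 without library 1309.

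Heat-stressed and control birds of the same day were compared within 1 table, where gene models are shared. No gene of the IGF system was called with limma at any of the 5 days, where a call needed an adjusted p under 0.05. The background was 0.133% of 8256 genes at day 22, 0.584% of 9079 at day 26, and 0 at days 32, 40 and 42, where 609 of 10282, 416 of 8831 and 242 of 9231 genes had an unadjusted p under 0.05. A rank-sum test called 0 of the IGF system genes at each day. It called 7 of 8256 genes at day 22 and 0 of all genes at days 26, 32, 40 and 42. With 5 or 6 birds in a group at days 26, 32 and 40 it could call genes only if many of them came near its smallest possible p. Between the controls of days 26 and 32, with 6 birds each, it did call 59 of 8862 genes. At days 22 and 42 there were more birds, but so few genes of any kind were called that nothing is drawn from it. Over the 5 days, 5 of 39 tests of IGF system genes had an unadjusted p under 0.05 in limma, and each of these 5 was lower in heat. Of all genes tested, 54.7% at day 22, 41.2% at day 26 and 59.6% at day 40 were lower in heat. The 3 tests of day 40 share the same birds and are not independent. At day 22 407 of 8256 genes and at day 26 1245 of 9079 genes had such a p, so that 1 of 8 IGF system genes at each of these days is near the share of all genes at day 26.

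At day 22 this was IGF1R. Controls went from 4.00 over a median of 5.69 to 8.59 FPKM and heat-stressed birds from 2.90 over 4.57 to 6.52. Of 13 heat-stressed birds, 12 were below the control median and 6 below every control. The log2 difference was -0.34 ± 0.12 (SE, limma unadjusted p = 0.0103, adjusted p = 0.834). Since the day 22 controls were above those of day 21, the heat-stressed birds, at 4.28 ± 1.05 FPKM (n = 13), lay between the controls of day 21 (3.39 ± 0.83, n = 15) and those of day 22 (5.68 ± 1.40, n = 10), a description with no test of its own.

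At day 26 it was IGFBP7. Controls had 238, 268, 278, 289, 343 and 451 FPKM and heat-stressed birds 165, 191, 204, 217 and 273. All 5 heat-stressed birds were below the control median and 4 were below every control. The log2 difference was -0.55 ± 0.18 (SE, limma unadjusted p = 0.009, adjusted p = 0.213). The summed fibroblast and mural genes also had a lower median in heat, 290 against 539 FPKM, as did the endothelial genes, 27.2 against 48.9. Myelin genes (50769 against 53261) and neuronal genes (16.8 against 18.5) were slightly lower. Medians were higher in heat for hormones (128 against 21.6), anterior lobe transcription factors (2.38 against 0.528) and astroglia (1026 against 840). The part of these markers was not tested.

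At day 40 it was 3 genes. IGF2 had 3.35, 3.42, 5.14, 6.31 and 6.75 FPKM in controls and 0.502, 1.54, 2.53, 2.99 and 4.37 in heat. Of the heat-stressed birds 4 were below every control, and the log2 difference was -0.91 ± 0.33 (SE, limma unadjusted p = 0.0196, adjusted p = 0.934). IGFBP2 had 32.1 to 46.5 FPKM in the 5 controls and 20.1, 27.5, 28.7, 33.2 and 34.9 in heat, with a log2 difference of -0.43 ± 0.17 (limma adjusted p = 0.934). IGFBP5 had 12.7, 15.0, 15.5, 16.4 and 21.1 FPKM in controls and 7.58, 8.33, 10.2, 13.3 and 16.6 in heat, with a log2 difference of -0.53 ± 0.21 (limma adjusted p = 0.934). The groups overlapped for each of the 3 genes, and the lowest value of all 3 came from the same heat-stressed bird, library 1574. The 5 neuronal marker genes summed to 14.5 to 123 FPKM with a median of 15.5 in heat and 22.1 to 168 with a median of 78.5 in controls. The endothelial sum had a median of 58.8 against 38.7 and the fibroblast and mural sum 503 against 589. The part of these markers was not tested.

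At days 32 and 42 no gene of the IGF system had an unadjusted p under 0.05. At day 42, with 10 controls and 17 heat-stressed birds, the log2 differences lay between -0.57 for IGFBP5 (approximate 95% interval -1.28 to 0.14) and 0.22 for IGFBP4 (-0.28 to 0.71). These intervals were taken from the SE by the normal distribution and are somewhat narrower than those of the limma test. Within the range from 1400 IGF2R was -0.47 and within the range under 1100 it was 0.74, with limma adjusted p of 0.479 and 0.9. At day 32 the median of all genes was -0.17, and the differences lay between -0.48 for IGF2R (approximate 95% interval -1.32 to 0.35) and 0.10 for IGF2 (-0.50 to 0.70). The intervals reach 2-fold on the log2(FPKM + 1) scale for IGF2R at day 32 and IGFBP5 at day 42, so changes of that size cannot be set aside at this number of birds. This scale understates the change of low genes. For such genes a 2-fold change in FPKM may lie within narrower intervals too.

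**Figure D3:**
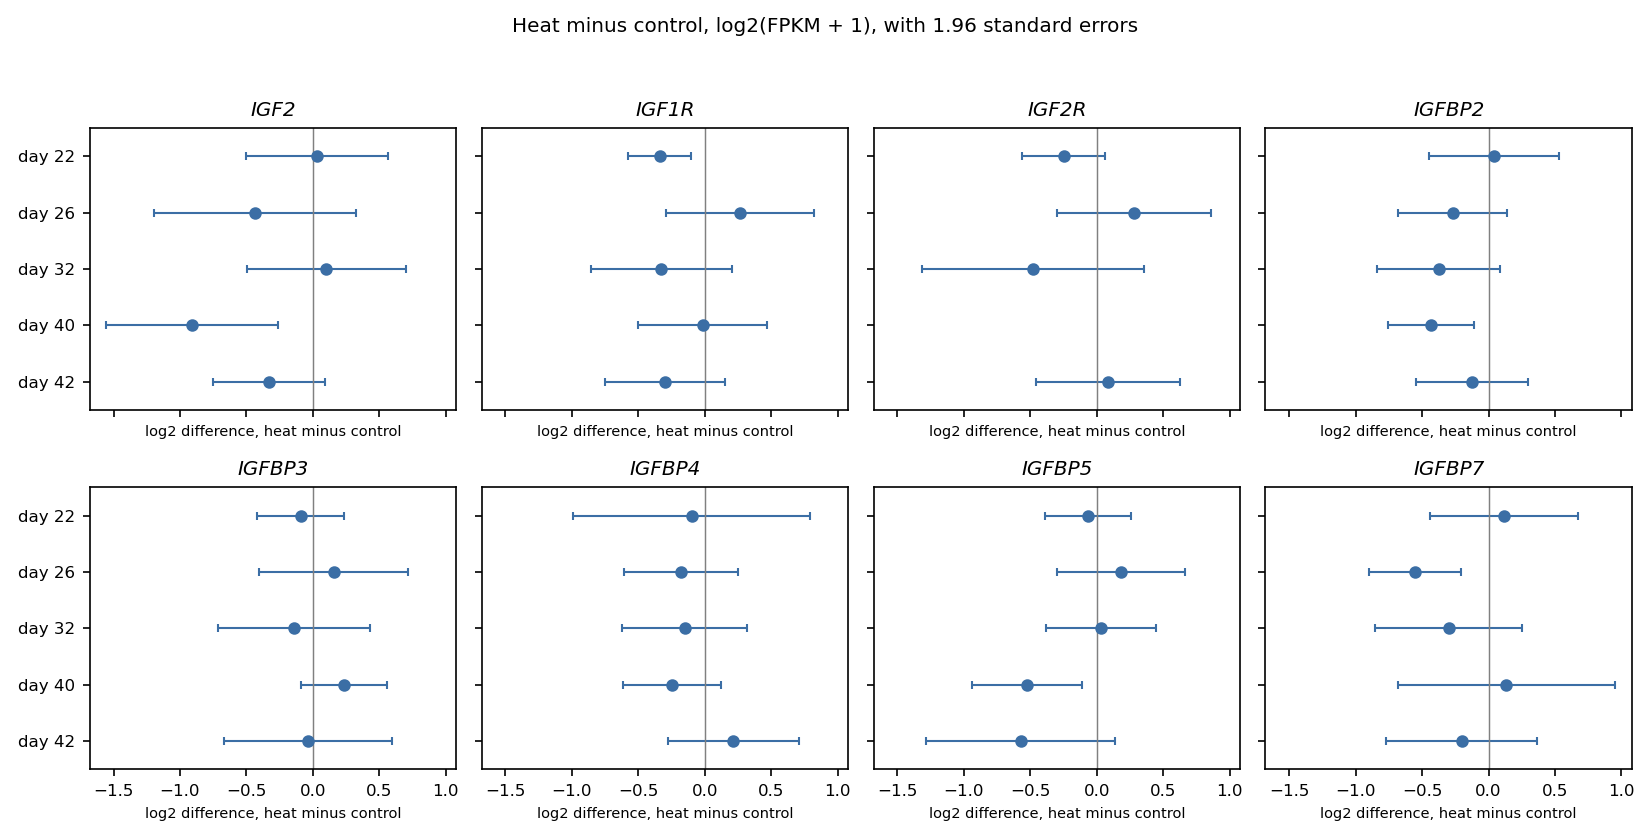
Differences in log2(FPKM + 1) between heat-stressed and control birds (horizontal axes, heat minus control) for the 8 genes above the filter at each of 5 days. Bars are approximate 95% intervals, taken from the SE by the normal distribution. No gene was called, and the intervals that leave out 0 are those of IGF1R at day 22 (-0.34), IGFBP7 at day 26 (-0.55) and IGF2 (-0.91), IGFBP2 (-0.43) and IGFBP5 (-0.53) at day 40.

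Whether the response to heat differed between days was tested with an interaction of heat and day in limma. It was called for 0.183% of 7649 genes and for 0 of 7 IGF system genes, all with an adjusted p of 1 and none with an unadjusted p under 0.05 (295 of all genes had one). IGF2R, absent from the day 40 table, also had an adjusted p of 1 over the other 4 days.

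The wider pathway was read from a list of 48 other genes of insulin and IGF signalling, 42 of which are listed in at least 1 table. In controls, 9 of 34 tested genes were called between day 22 and day 42, 4 higher and 5 lower, and 7 of 34 between day 40 and day 42, 5 higher and 2 lower. Both shares are below those of all genes, 33% and 28.8%. The largest change was in HTRA1, a secreted protease that cuts IGFBPs. It went from 201 over a median of 297 to 369 FPKM at day 22 and from 2.00 over 7.97 to 31.2 at day 42. It fell by 4.93 ± 0.29 on the log2 scale (SE, limma adjusted p = 6.7e-13). The days did not overlap, and the share of all genes for which this held was not counted. PAPPA, the protease that releases IGFs from IGFBP4, rose by 1.10 from 0.646 ± 0.264 to 2.66 ± 1.16 FPKM (n = 10 each, limma adjusted p = 1.03e-05). STC2, an inhibitor of PAPPA, fell by 1.09 from 1.94 ± 0.677 to 0.366 ± 0.262 FPKM (limma adjusted p = 6.12e-06). PAPPA2, a relative of PAPPA, was not called between days 22 and 42, and had 0.653 ± 0.327 FPKM at day 22 (n = 10). It was called between days 40 and 42, with 2.40 ± 2.28 FPKM at day 42 and 0.229 ± 0.125 at day 40 (n = 10 and 5, limma adjusted p = 0.0197).

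Inside the cell, PIK3R1, the regulatory subunit of PI3 kinase, rose 3.01 on the log2 scale from 11.3 ± 2.64 FPKM at day 22 to 111 ± 49.4 at day 42 (limma adjusted p = 1.39e-08). HRAS, a GTPase upstream of the MAP kinases, rose 2.15 from 35.9 ± 6.20 to 164 ± 35.9 FPKM (limma adjusted p = 2.56e-11). GRB14, an adaptor that dampens insulin receptor signalling, fell by 1.34 (limma adjusted p = 1.4e-09). The RNA-binding proteins named for binding IGF2 mRNA moved apart. IGF2BP1 fell by 1.53, from 3.30 ± 0.839 to 0.483 ± 0.277 FPKM (limma adjusted p = 4.87e-09). IGF2BP2 rose by 1.31, from 6.24 ± 1.86 to 17.0 ± 4.71 FPKM (limma adjusted p = 1.46e-06). These genes moved beside the change in makeup given above, and its part was not tested. HTRA1, IGF2BP1, PAPPA, PIK3R1 and HRAS stayed called between days 22 and 42 in all 25 other settings and subsets tried, whereas GRB14 was called in 16, STC2 in 23 and IGF2BP2 in 24 of them.

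From day 22 to day 26, 6 of 32 genes of the list were called and all 6 were lower. Of all genes 11.3% were called, 747 lower and 157 higher, a split that became 230 lower and 407 higher with each library rescaled to its median gene. The larger falls were in INSR, the insulin receptor, from 8.29 ± 1.42 to 2.67 ± 0.685 FPKM (-1.35, limma adjusted p = 7.58e-06), in MTOR, the kinase at the centre of growth control (-1.33, adjusted p = 0.00299), in IRS1, the docking protein of the insulin and IGF1 receptors (-1.27, adjusted p = 0.00172), in RPTOR, the partner of MTOR (-1.12, adjusted p = 3.35e-05), and in BRAF, a kinase of the MAP kinase route (-1.05, adjusted p = 0.011). The median of the list was -0.36 and that of all genes -0.35. IRS1 was called in all 21 other settings, INSR and RPTOR in 20, MTOR in 19, BRAF in 16 and PIK3CA, the sixth gene and a catalytic subunit of PI3 kinase, in 13. With the number range as a covariate MTOR was -0.62 and BRAF -1.10, with limma adjusted p of 0.144 and 0.0591. BRAF was under the 2-fold minimum without library 1523, 847 or 1512, and PIK3CA, at -1.01, was under it without any 1 of 6 libraries (1550, 1551, 1552, 1553, 1078 or 847). BRAF rose from day 32 to day 40, by 1.34 from 0.469 ± 0.204 to 3.05 ± 1.93 FPKM (limma adjusted p = 0.0142), as the only 1 of 32 genes called there, where 2.93% of all genes were. With the number range as a covariate the difference was 0.35 (limma adjusted p = 0.795). None of 29 genes between days 21 and 22 and none of 34 between days 26 and 32 was called.

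Under heat, 1 gene of the list was called at 1 day. MTOR at day 26 had 1.06, 1.76, 3.21, 3.28, 3.34 and 10.2 FPKM in controls and 11.1, 11.6, 15.2, 17.4 and 25.3 in heat-stressed birds, so that the groups did not overlap. How many of all genes were without overlap was not counted. The difference was 1.99 ± 0.38 on the log2 scale (SE, limma adjusted p = 0.0448), 1 of 35 genes tested. It was at the edge of the threshold, since it was called in 1 of 16 other settings, the one without library 1513 of the controls (2.28, adjusted p = 0.0197). Leaving out any 1 of the other 10 libraries ended the call, with log2 differences of 1.79 to 2.10, and with the number range as a covariate it was 1.60 (adjusted p = 0.613). None of 33, 32, 34 and 35 genes of the list was called under heat at days 22, 32, 40 and 42.

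The genes were also compared by how they varied between birds of the same group. Each library's log2(FPKM + 1) was taken relative to its group mean and 21 pairs of the 7 genes listed in all tables with a mean of 1 FPKM were correlated over 98 libraries, with a two-sided permutation test of 100000 resamples within groups. IGF2 and IGFBP2 varied together most closely, with Pearson r = 0.67 and Spearman rho = 0.65 (permutation p = 1e-05 for both, the smallest that the resamples can give, adjusted over 21 pairs p = 0.00021). Without the 2 libraries farthest from the median of IGF2 r was 0.66. It was 0.77 over the 71 libraries of days 21 to 40 and 0.44 over the 27 of day 42. IGFBP3 and IGFBP7 had r = 0.50 and rho = 0.46 (permutation p = 2e-05 for both, adjusted p = 0.00021), with 0.33 at days 21 to 40 and 0.70 at day 42, and 0.39 without the 2 libraries farthest from the median of IGFBP3. IGF2 with IGFBP5 had r = 0.33 (permutation adjusted p = 0.00609) and IGFBP2 with IGFBP7 r = 0.31 (permutation adjusted p = 0.0214). Without the 2 libraries farthest from the median of IGF2 or IGFBP2, r of these pairs was 0.26 and 0.29. At days 21 to 40 it was 0.24 and 0.28, and at day 42 0.55 and 0.36. By rank, 3 more pairs passed that did not pass by r. They were IGFBP4 with IGFBP5 (rho = 0.33, permutation adjusted p = 0.00861), IGF2 with IGFBP4 (rho = 0.27, permutation adjusted p = 0.0396) and IGFBP3 with IGFBP4, in opposite directions (rho = -0.26, permutation adjusted p = 0.0443), for which r was 0.18, 0.09 and -0.19. The libraries of a group share a table and differ in depth and in makeup, which moves many genes at once. The permutation p-values therefore do not say that these pairs vary together more closely than other pairs of genes. The share of all gene pairs with such an r was not counted.

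**Figure D4:**
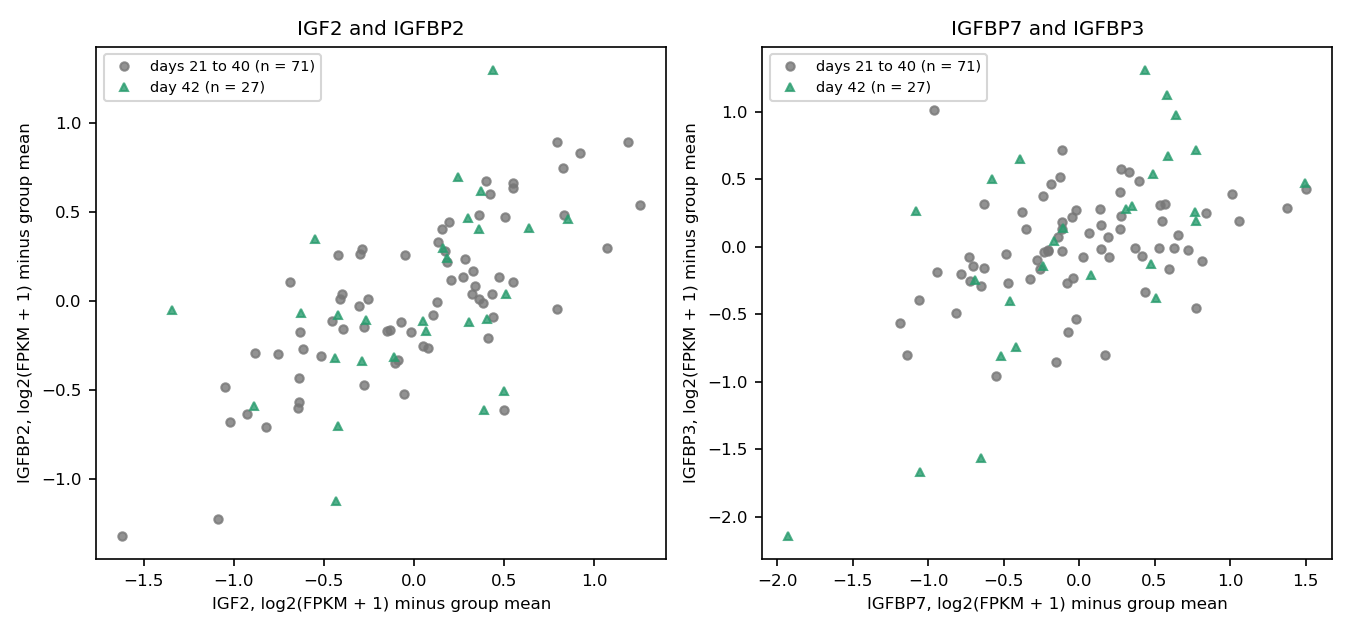
Log2(FPKM + 1) of each library minus the mean of its group, for IGFBP2 against IGF2 (left) and IGFBP3 against IGFBP7 (right), with grey circles for the 71 libraries of days 21 to 40 and green triangles for the 27 of day 42. Birds with more IGF2 than their group had more IGFBP2 (r = 0.67), and the relation of IGFBP3 with IGFBP7 (r = 0.50) has 3 libraries of day 42 (1012, 1014 and 995) at its low end.

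The genes most like each member in this variation, among 7338 genes with a mean of 1 FPKM, are given with r over 98 libraries as a description. For IGF2 they were FOXC2 (0.71), ADA (0.69) and SCARA3 (0.68). For IGFBP2 they included ISLR (0.73) and SCARA3 (0.72). SCARA3 is thus named for both. For IGFBP7 they were ITIH5 (0.73), SPON2 (0.72) and FBLN1 (0.70), which encode secreted proteins of the extracellular matrix. For IGFBP3 they were API5 (0.80), SH3BGRL (0.80) and RP2 (0.79). For IGFBP5 they included SNX33 and RBM7 (0.71 each), for IGFBP4 EIF4EBP2 (0.62), LOC769039 (0.60) and TMED3 (0.59), and for IGF1R TMEM108 (0.59), LOC101747634 (0.59) and NR2F2 (0.58). In rank correlation SNX33 and RBM7 went down to 0.50 and 0.38 and those of IGF1R to 0.30 to 0.40.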

How the data were processed

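RNA of single glands was sequenced from stranded Illumina libraries. The authors aligned reads to galGal4 with Bowtie and TopHat and deposited FPKM from Cufflinks, 1 table per day. Tool versions and further scaling are not given in the sources used here. Columns were matched to 98 of 100 labelled samples, and the 3 columns whose names fit no label were not used. The genes and lists were chosen with earlier results of these data known.

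FPKM were compared as log2(FPKM + 1) with limma 3.58.1 in R 4.3.3 (trended empirical Bayes), for genes that averaged 1 FPKM or more in the 2 groups, with Benjamini-Hochberg adjustment over all of them. Only the 2 groups compared entered a fit, and all groups of days 22 to 42 entered the interaction. The fits were tested on simulated data with known changes. Each library is 1 bird, so p-values measure the spread between birds of 1 trial. Pairs were correlated in Python 3.11.15 (numpy 2.4.6, pandas 2.3.3, scipy 1.17.1, matplotlib 3.10.9). Named were all 9 genes, up to 5 called rises and falls of the pathway list per comparison, and the 3 genes most like each member. A few genes that this rule names are not reported here.

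Alternatives were a pseudocount of 0.1, no filter, rescaling to the median gene, TPM (FPKM rescaled to 1 total), a rank-sum test, no minimum fold, the number range as covariate, heat-stressed birds in place of controls and each library left out. Fits within 1 number range, without libraries 1012 and 984, without libraries 1432 and 1437, an interaction over 4 days, and the same settings for pathway genes were added after the data were seen. Depth in reads was not used, so no counting interval is given. Sequences of these genes were not used here.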

Additional observations from a re-analysis of the deposited data

Results flagged for a closer look

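Within groups of 4 to 10 libraries, 8 of 70 sets of values had 1 library far from the others by Dixon's test. Chance gives about 1 in 20 if the values follow a normal distribution. Here FPKM were used without logarithms and the sets share libraries, so the count is a description only. IGFBP7 was 569 FPKM in day 22 control library 1523 (next 346) and 536 in day 40 control library 1577 (next 178). The same library 1577 had the highest IGFBP3 of its group, 4.15 FPKM against 2.74. IGFBP5 was 19.7 FPKM in day 22 control library 1437 (next 9.80). Among the day 32 controls IGF1R was 12.4 FPKM in library 1315 (next 5.73) and IGFBP2 was 47.0 in library 1309 (next 32.3). IGF2R was 26.6 FPKM in heat-stressed library 1304 of day 32 (next 8.38). IGFBP4 was lowest, at 22.7 FPKM, in day 40 control library 1579 (next 31.6).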

How the results depend on the processing

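Heat called 0 IGF system genes at each day, and the interaction 0, in every setting run. Few genes at all were called under heat. Apart from the fits with 1 library left out, the share of all genes reached 0.133% at day 22 and 0.606% at day 26. It was 0 at days 32 and 40, and at day 42 only 1 of 9046 genes was called, within the range under 1100. The interaction called 12 to 30 genes. The 0 therefore says little about the IGF system genes in particular. Between days and without the minimum fold, 1 of 8 IGF system genes was called from day 21 to 22 and 3 of 8 from day 22 to 26. It was 4 of 7 from day 40 to 42 and 4 of 8 from day 22 to 42. Of all genes, 0.257%, 50.2%, 37% and 53.1% were called in these 4 fits. With the minimum fold, the number of IGF system genes called from day 22 to 26 was 0 to 1 with each library left out. It was 1 (IGFBP2) with the number range as covariate, with heat-stressed birds and within the range from 1500. Of all genes, 11.6%, 8.07% and 11.8% were called in these 3 settings. From day 32 to 40 it was 1 (IGF2) as TPM, where 7.31% of all genes were called, and 0 to 1 with each library left out. From day 40 to 42 it was 1 with heat-stressed birds, against 30.3% of all genes, and 1 to 3 with each library left out. From day 22 to 42 it was 1 with heat-stressed birds (IGFBP2) and 1 with the number range as covariate (IGFBP7, 1.36), against 32.4% and 24.7% of all genes. With each library left out it was 2 to 3. Without libraries 1012 and 984 it was 2 in both comparisons with day 42, against 29.6% of all genes from day 40 and 31.9% from day 22. IGFBP3 from day 40 to 42 was 0.70 as TPM (adjusted p = 0.167 in limma), IGFBP4 passed the 2-fold minimum as TPM in both comparisons with day 42 (-1.55 and -1.15), IGF2R from day 22 to 42 was -0.97 after rescaling to the median gene and -0.81 with heat-stressed birds, and IGFBP5 from day 22 to 42 was 0.58 as TPM and 0.64 with heat-stressed birds. The causes were not tested. Over 2170 comparisons of a setting with its main value, 115 changed sign where neither difference was called. The 2170 include called differences, each main value set against itself and each library left out. Rescaling to the median gene turned the split of all called genes from 157 higher and 747 lower to 407 and 230 from day 22 to 26, from 195 and 56 to 97 and 114 from day 32 to 40, and from 1064 and 1679 to 1340 and 1362 from day 22 to 42. As TPM it was 793 and 3218 from day 40 to 42, against 980 and 1540, and 856 and 3747 from day 22 to 42, where the median gene stood at -0.77. No paired analysis was possible because the library numbers are not shared between groups.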
